A study of Mus musculus with 12 samples.

Results

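The collagen chains were taken as all protein-coding rows of the expression table whose symbol is Col, a type number, a and a chain number, which gave 39 of 22915 genes. Primary cardiomyocytes isolated from adult male C57/Bl6 mice, 12 weeks of age, were kept for 24 h under normoxia with mLIF (murine leukemia inhibitory factor), mOSM (murine oncostatin M) or hlOSM, and cells given an equal volume of the solvent PBS served as control. The OSM receptor (OSMR) is the receptor of mOSM, the LIF receptor (LIFR) is that of mLIF, and hlOSM is mOSM whose AB loop carries the human sequence, which allows it to use both receptors. Each condition was sequenced in 3 libraries, 12 in all. The sample descriptions give 25 ng/mL for each recombinant protein, whereas the paper states a lower concentration. The labels do not say whether libraries come from separate animals or preparations, so p-values measure the spread between these libraries.

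Collagens are the main structural proteins of the extracellular matrix, and each molecule is a triple helix of alpha chains that are encoded by separate genes. Fibrillar chains assemble into the banded fibrils of the myocardial interstitium, type IV chains form the sheet-like network of the basement membrane that surrounds cardiomyocytes and capillaries, and the remaining types decorate fibrils, form beaded filaments or short networks, or span the cell membrane. In the heart these genes are known to be transcribed mainly by fibroblasts, vascular mural cells and endothelial cells, which can remain in a cardiomyocyte isolation.

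The 39 chains comprised 11 fibrillar chains, 6 type IV chains of the basement membrane and 22 chains of other types. The deposited values are normalized counts, not divided by gene length, and their sum over a library was 2745748 to 2911891. Of the 39 chains, 26 reached 10 normalized counts in 3 or more libraries and entered the test (9 fibrillar, 6 basement membrane, 11 other), and the other 13 reached at most 14 in any library. Of the chains tested, 16 had a mean of at least 50 over the 12 libraries, and the counts below rest on these 16 chains, since Col2a1, Col23a1, Col27a1, Col4a3, Col4a4 and Col4a6 entered the test through the conditions in which they were high. The mean is taken over all conditions and has a like limit. Col16a1 and Col6a2 had means of 80.3 and 132 with PBS and 63.0 and 99.3 with mLIF. With mOSM the means were 34.7 and 48.3, and with hlOSM 34.3 and 43.3. Col6a1 had 45.3 with hlOSM, and Col5a3 lay just outside the 16 chains at 48.7 over all libraries. The 6 chains named above are described by their values alone. Over the 26 chains tested, these 6 included, 0 were raised and 4 lowered with mLIF (5.47% and 4.44% of all genes tested), 4 and 14 with mOSM (15.4% and 15.8%), and 5 and 16 with hlOSM (18.2% and 19.8%), and 15 differed between mOSM and mLIF (11.8%), 18 between hlOSM and mLIF (16.6%) and 0 between hlOSM and mOSM (0.106%, with 3 of the 26 chains and 7.49% of all genes at an unadjusted p under 0.05). Together all 39 chains held 0.275% ± 0.00482 (SD, n = 3) of the normalized counts of a library with PBS, 0.252% ± 0.00538 with mLIF, 0.251% ± 0.0104 with mOSM and 0.244% ± 0.00879 with hlOSM.

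Among the chains, basement membrane transcripts were the most abundant. Per kb of the main coding transcript, the level in PBS was 254 ± 9.86 normalized counts (SD, n = 3) for Col4a1 and 225 ± 2.81 for Col4a2, the partner chains of the common type IV network. These were followed by Col4a5 at 100 ± 5.57, which belongs to a further type IV network, and by Col1a2 at 90.6 ± 14.2, Col8a1 at 89.7 ± 6.44, Col15a1 at 77.5 ± 13.2, Col5a2 at 72.6 ± 9.59 and Col3a1 at 71.7 ± 3.07. From Col4a5 on, neighbours in this order did not differ beyond their spread. On the same per kb scale, Col1a1, the partner of Col1a2 in type I collagen, stood at 48.1 ± 7.14. Col3a1 moved from position 8 among the chains in PBS to position 3 with mOSM (153 ± 31.8) and hlOSM (148 ± 17.1), whereas Col15a1 moved from 6 to 12 and Col6a1 from 9 to 14. If the length of all annotated exons was used instead, Col1a2 stood at position 10 in PBS, and Col3a1 again reached position 3 with both OSM proteins.

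**Figure D1:**
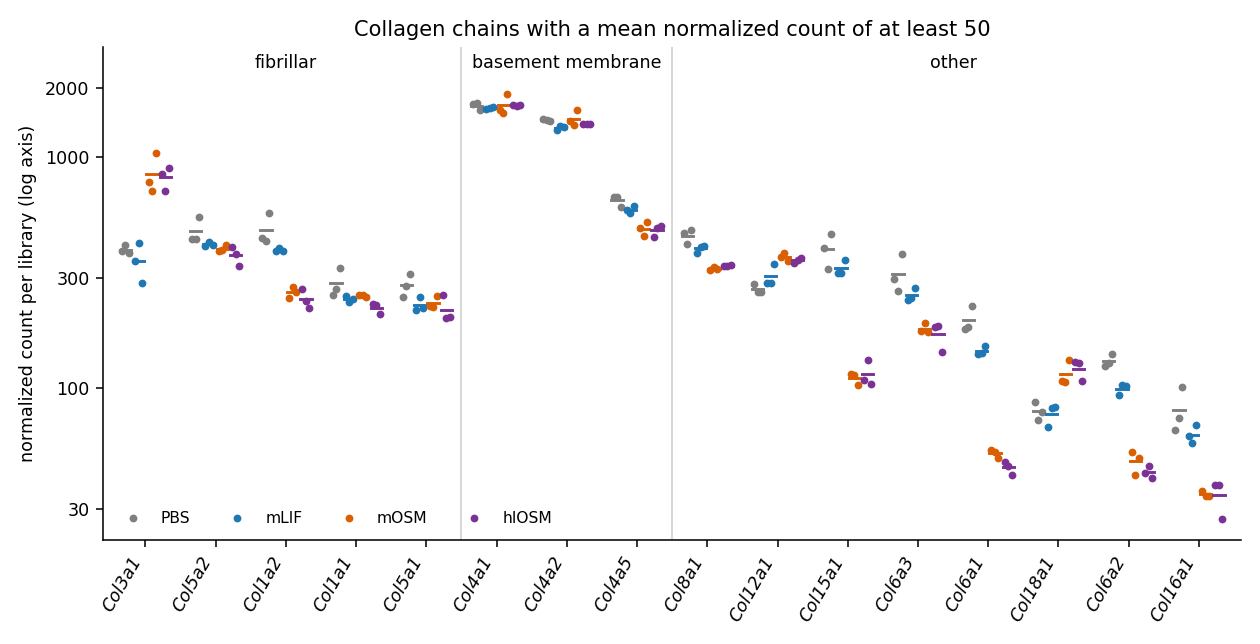
Normalized counts of the 16 collagen chains with a mean of at least 50, with 1 point per library, a short line at the mean of 3 libraries and a log axis. Col3a1 is the fibrillar chain with higher points for mOSM and hlOSM than for PBS, Col4a1 and Col4a2 stay between 1313 and 1876 in every condition, and the points of Col6a1, Col6a2, Col15a1 and Col16a1 drop for mOSM and hlOSM.

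With mOSM, 3 of the 16 chains were raised and 10 were lowered against PBS (limma, Benjamini-Hochberg adjusted p over the 13184 genes tested), where 17.4% and 17.1% of all genes of this level passed in these directions. With hlOSM, 3 were raised and 11 lowered, against 20.4% and 21.4% of all genes. The raised chains were Col3a1, Col12a1 and Col18a1 with either protein. The median log2 fold change of the 16 chains was −0.330 with mOSM and −0.390 with hlOSM, and that of all genes tested was 0 and −0.01. Libraries did not overlap with PBS in 3 chains that were higher and 9 that were lower with mOSM (22.7% and 20.9% of genes of this level), and in 3 and 11 with hlOSM (25.6% and 26.8%). Both comparisons use the same 3 PBS libraries. In RNA of whole cultures, fewer cells of a type and less RNA per cell cannot be told apart.

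Of the 5 fibrillar chains with a mean of at least 50, Col3a1 alone was raised with mOSM and hlOSM, and it encodes the chain of type III collagen, which forms thin, compliant fibrils. Its gene lies at chr1:45311538-45349706 on mm10 (plus strand). Col3a1 was listed at 394, 418 and 385 in the PBS libraries, 356, 428 and 286 in the mLIF, 785, 715 and 1050 in the mOSM and 848, 719 and 904 in the hlOSM libraries. All 6 libraries with an OSM protein lay above the 6 others, and mLIF overlapped with PBS. The log2 fold change against PBS was 1.07 with mOSM (SE 0.12, limma adjusted p = 4.62e-07), 1.04 with hlOSM (adjusted p = 5.37e-07) and −0.18 with mLIF (adjusted p = 0.366).

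The 250 bases before the RefSeq start of Col3a1 (GRCm38.p6, chr1:45311288-45311537, plus strand) and of Col15a1 (chr4:47207762-47208011, plus strand) are shown because, of the 16 chains, these were the most raised and the most lowered ones whose window holds no annotated exon, and capitals mark a TATA box.
Col3a1: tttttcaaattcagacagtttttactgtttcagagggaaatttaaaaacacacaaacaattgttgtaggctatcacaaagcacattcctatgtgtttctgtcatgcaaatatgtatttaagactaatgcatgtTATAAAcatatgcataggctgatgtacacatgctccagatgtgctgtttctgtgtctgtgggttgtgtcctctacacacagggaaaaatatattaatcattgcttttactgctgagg
Col15a1: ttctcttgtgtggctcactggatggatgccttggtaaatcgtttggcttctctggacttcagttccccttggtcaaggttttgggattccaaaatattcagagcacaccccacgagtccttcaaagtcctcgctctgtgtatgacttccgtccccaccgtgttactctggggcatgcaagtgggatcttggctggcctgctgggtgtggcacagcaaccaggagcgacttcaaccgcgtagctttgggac
The Col3a1 window has a GC content of 35.2% and holds the TATA box letters TATAAA at 117 bases before the start, whereas the Col15a1 window has 53.6% and held none of the 5 motifs searched. Motifs were searched on both strands, and the STAT and AP-1 motifs read the same on either strand. RefSeq windows were found for 31 of the 39 chains, 33 windows in all. The STAT motif, spelled TTCNNNGAA, was in 2 of these 33 windows, before Col28a1 and Col6a5, both untested, which is 6.06% against 7.02% of all 32851 promoter windows and 6.13% of those of protein-coding genes. The AP-1 motif, spelled TGANTCA, was in 1 window (3.03%, against 6.75% of all and 5.22% of protein-coding windows), that of Col6a1, at 90 bases before the start. The GC box, spelled GGGCGG, was in 21 windows (63.6%, against 32.7% of all and 53.6% of protein-coding windows). The CCAAT box was in 12 (36.4%, against 33.8% of all and 34.7% of protein-coding windows). The TATA box was in 4 (12.1%, against 12.4% of all and 7.50% of protein-coding windows). A match is a run of letters and no evidence of binding.

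Type I collagen, the main tensile fibril of the heart, is built from Col1a1 and Col1a2. Col1a2 was listed at 448, 434 and 572 in the PBS libraries, 393, 406 and 393 in the mLIF, 245, 274 and 262 in the mOSM and 270, 239 and 223 in the hlOSM libraries. The 6 libraries with an OSM protein lay below all others. The log2 fold change was −0.88 with mOSM (SE 0.09, adjusted p = 5.97e-08) and −0.98 with hlOSM (adjusted p = 9.46e-09). Col1a1 was listed at 253, 269 and 333 in the PBS libraries, 252, 236 and 243 in the mLIF, 254, 253 and 248 in the mOSM and 231, 230 and 210 in the hlOSM libraries. Here mOSM reached into the range of PBS, with a log2 fold change of −0.17 (adjusted p = 0.123), and hlOSM lay below it (−0.34, SE 0.08, adjusted p = 0.00224). Without PBS replicate 1, Col1a1 passed with mOSM as well (−0.25, adjusted p = 0.0331).

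Of the chains of type V collagen, which sets the diameter of type I fibrils, Col5a1 and Col5a2 had a mean of at least 50. Col5a2 was listed at 444, 444 and 554 in the PBS libraries, 412, 432 and 419 in the mLIF, 393, 397 and 417 in the mOSM and 408, 380 and 340 in the hlOSM libraries. Its libraries with mOSM and hlOSM lay below those with PBS, with a log2 fold change of −0.25 (adjusted p = 0.0175) and −0.35 (adjusted p = 0.00112). Col5a1 was listed at 248, 277 and 313 in the PBS libraries, 219, 248 and 222 in the mLIF, 227, 225 and 250 in the mOSM and 254, 201 and 203 in the hlOSM libraries. The conditions overlapped in this gene, with log2 fold changes of −0.25 with mOSM (adjusted p = 0.0437, and 0.0664 in the fit with replicate numbers as blocks) and −0.35 with hlOSM (adjusted p = 0.00476). Col5a1 also missed the threshold with mOSM when no low genes were left out (adjusted p = 0.0655) or after rescaling by the trimmed mean of M-values (0.0554). The calls with mOSM rested on single libraries. Without PBS replicate 3, the value was −0.14 for Col5a2 (adjusted p = 0.161) and −0.16 for Col5a1 (adjusted p = 0.233). Without mOSM replicate 1 the adjusted p was 0.0574 and 0.118, and that of Col5a1 was 0.0844 without PBS replicate 2, 0.125 without mOSM replicate 2 and 0.0523 without mLIF replicate 3.

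In the basement membrane class, the 2 abundant chains passed the threshold in no comparison with PBS. Col4a1 was listed at 1700, 1730 and 1605 in the PBS libraries, 1622, 1644 and 1648 in the mLIF, 1612, 1556 and 1876 in the mOSM and 1683, 1669 and 1692 in the hlOSM libraries. The log2 fold change was 0.00 with both OSM proteins (95% interval −0.12 to 0.12) and −0.03 with mLIF. Col4a2 was listed at 1469, 1455 and 1433 in the PBS libraries, 1313, 1363 and 1351 in the mLIF, 1438, 1376 and 1598 in the mOSM and 1391, 1396 and 1400 in the hlOSM libraries. The hlOSM and mLIF libraries lay below those with PBS, and the log2 fold change was −0.11 for mLIF, 0.02 for mOSM and −0.06 for hlOSM (adjusted p between 0.171 and 0.854). The 2 genes lie head to head on chromosome 8, where their annotated ends overlap by 22 bases.

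Col4a5, an X-linked chain of the alpha3-alpha4-alpha5 and alpha5-alpha6 networks, was lowered. It was listed at 677, 673 and 612 in the PBS libraries, 592, 576 and 614 in the mLIF, 494, 456 and 526 in the mOSM and 450, 497 and 505 in the hlOSM libraries. The 6 libraries with an OSM protein lay below all others, with a log2 fold change of −0.41 with mOSM (SE 0.06, adjusted p = 3.18e-05) and −0.43 with hlOSM (adjusted p = 1.22e-05). Its partner chains were low in every library. Col4a6, head to head with Col4a5 at a distance of 1308 bases, was listed at 24, 12 and 20 with PBS and at 1 to 8 with the OSM proteins. Col4a3 and Col4a4, head to head at a distance of 71 bases on chromosome 1, went from 14 to 17 and 15 to 21 with PBS to 2 to 5 and 3 to 10 with the OSM proteins. With mLIF, Col4a3, Col4a4 and Col4a6 were listed at 5 to 9, 17 to 20 and 9 to 16. These 3 chains reached 10 in a single library with an OSM protein and entered the test through the other conditions.

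The type VI chains with a mean of at least 50 were lowered with both OSM proteins, and Col6a1 had the lowest estimate of the 16 chains. Type VI collagen is the beaded filament that links the basement membrane to the interstitium. Col6a1 (chr10:76708792-76726168 on mm10, minus strand) was listed at 181, 185 and 228 in the PBS libraries, 140, 142 and 153 in the mLIF, 54, 53 and 50 in the mOSM and 48, 46 and 42 in the hlOSM libraries. The 4 conditions did not overlap. The log2 fold change was −1.89 with mOSM (SE 0.10, adjusted p = 6.07e-12) and −2.10 with hlOSM (adjusted p = 9.05e-13). Col6a2, whose gene follows 85161 bases from Col6a1 on the same strand, was listed at 125, 129 and 141 in the PBS libraries, 93, 103 and 102 in the mLIF, 53, 42 and 50 in the mOSM and 43, 46 and 41 in the hlOSM libraries. Its libraries with PBS, mLIF and the OSM proteins formed separate ranges, with log2 fold changes of −1.43 (SE 0.11, adjusted p = 2.05e-09) and −1.58 (adjusted p = 2.62e-10).

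Col6a3, which encodes the long alpha3(VI) chain on chromosome 1, was listed at 296, 265 and 381 in the PBS libraries, 242, 247 and 273 in the mLIF, 177, 191 and 176 in the mOSM and 185, 186 and 144 in the hlOSM libraries. It lay below PBS in all 6 libraries with an OSM protein (log2 fold change −0.77 with mOSM, SE 0.11, adjusted p = 8.3e-06; −0.86 with hlOSM, adjusted p = 1.46e-06). The ratio of Col6a1 to Col6a3 in the same library was 0.636 ± 0.0542 with PBS and 0.266 ± 0.0229 with hlOSM (SD, n = 3). Col6a4, Col6a5 and Col6a6 were listed at 0 to 2 in all libraries.

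The multiplexins, Col15a1 and Col18a1, are basement membrane-associated collagens that carry glycosaminoglycan chains and release the fragments restin and endostatin, and they moved in opposite directions. Col15a1 was listed at 407, 330 and 466 in the PBS libraries, 317, 316 and 360 in the mLIF, 115, 114 and 103 in the mOSM and 108, 133 and 104 in the hlOSM libraries. The OSM libraries lay far below the others, with log2 fold changes of −1.84 (SE 0.11, adjusted p = 1.43e-11) and −1.79 (adjusted p = 1.64e-11). Col18a1 was listed at 87, 73 and 79 in the PBS libraries, 68, 82 and 83 in the mLIF, 107, 106 and 132 in the mOSM and 130, 128 and 107 in the hlOSM libraries. All OSM libraries lay above the others, with log2 fold changes of 0.52 (SE 0.11, adjusted p = 0.00129) and 0.60 (adjusted p = 0.000241). The ratio of Col15a1 to Col18a1 in the same library went from 5.03 ± 0.754 with PBS and 4.28 ± 0.407 with mLIF to 0.977 ± 0.170 with mOSM and 0.947 ± 0.106 with hlOSM.

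The fibril-associated chains also moved in opposite directions. Col12a1, which bridges fibrils under tension, was listed at 283, 262 and 262 in the PBS libraries, 287, 287 and 347 in the mLIF, 372, 386 and 357 in the mOSM and 349, 359 and 365 in the hlOSM libraries. It lay above PBS in every cytokine library and was raised with mOSM (log2 fold change 0.47, SE 0.07, adjusted p = 2.64e-05) and hlOSM (0.41, adjusted p = 8.86e-05), whereas 0.19 with mLIF did not pass (adjusted p = 0.101). Col16a1 was listed at 66, 74 and 101 in the PBS libraries, 62, 58 and 69 in the mLIF, 36, 34 and 34 in the mOSM and 38, 38 and 27 in the hlOSM libraries. The OSM libraries lay below all others, with log2 fold changes of −1.17 (adjusted p = 5.72e-06) and −1.20 (adjusted p = 3.03e-06). Col8a1, a short-chain network collagen of vessels, was listed at 471, 421 and 483 in the PBS libraries, 386, 410 and 414 in the mLIF, 325, 336 and 328 in the mOSM and 338, 340 and 341 in the hlOSM libraries. The PBS, mLIF and mOSM libraries did not overlap, with hlOSM just above mOSM (−0.47 with mOSM, adjusted p = 2.91e-06; −0.43 with hlOSM, adjusted p = 7.61e-06).

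**Figure D2:**
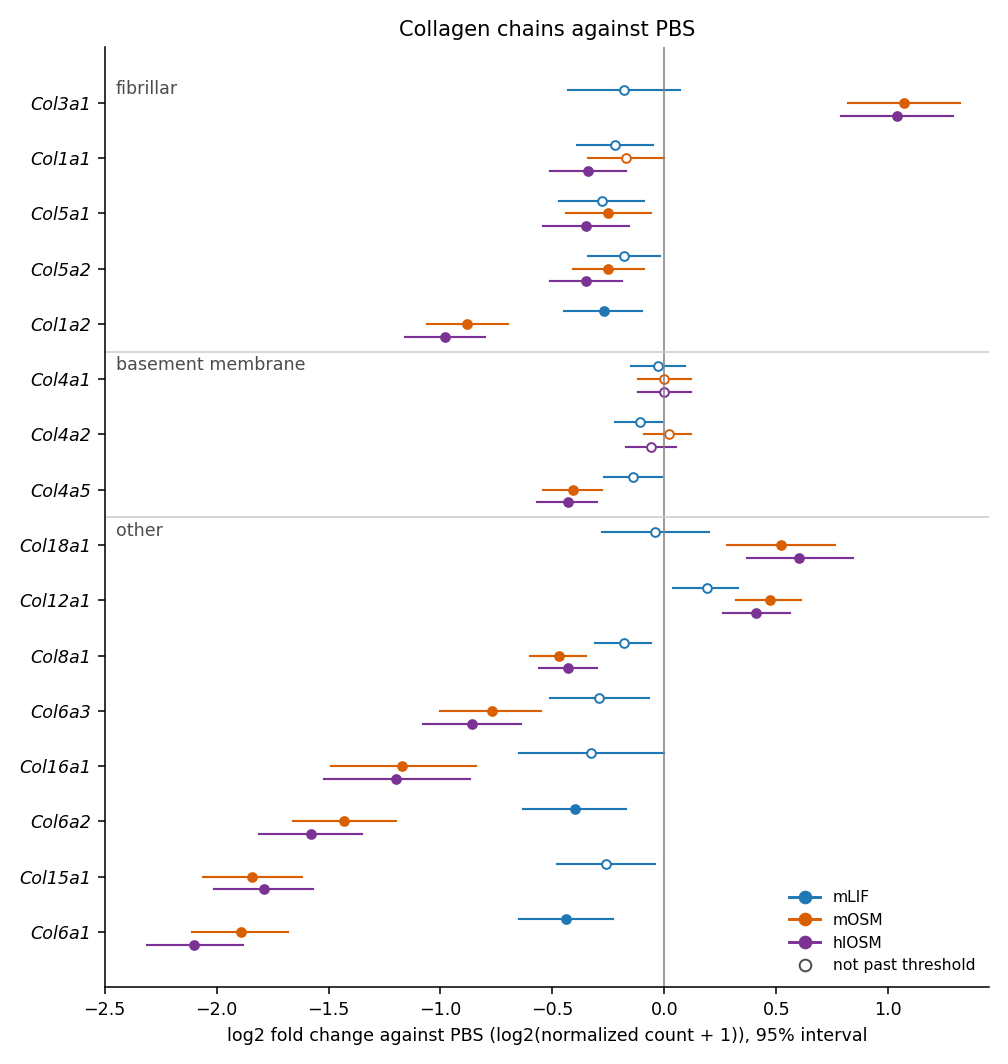
Log2 fold changes against PBS of the 16 chains on the log2(normalized count + 1) scale, with 95% intervals from limma, filled points for an adjusted p under 0.05 and open points otherwise. The points of mOSM and hlOSM run from −2.10 for Col6a1 to 1.07 for Col3a1 with overlapping intervals for each chain, and those of mLIF stay between −0.44 and 0.19.

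Of the 10 tested chains with a mean under 50, the transmembrane collagen Col23a1 reached 10 in 2 of the 6 libraries without an OSM protein and in all 6 with one. It was listed at 10, 3 and 8 in the PBS libraries, 7, 6 and 13 in the mLIF, 27, 52 and 19 in the mOSM and 18, 35 and 21 in the hlOSM libraries, and all OSM libraries lay above the others. Col11a2, a minor fibrillar chain, went from 25 to 36 with PBS to 16 to 20 with mOSM and 9 to 13 with hlOSM. These ranges did not overlap (−0.78 and −1.35, limma adjusted p = 0.00851 and 3.86e-05). With mLIF, Col11a2 was listed at 16 to 23, also below PBS (−0.64, adjusted p = 0.0629). Against mLIF it did not pass with mOSM (−0.14, adjusted p = 0.765). It passed with hlOSM (−0.71, adjusted p = 0.0279, and 0.0822 with the block). Its partner Col11a1 was not tested and was listed at 6, 7 and 4 with PBS, 5, 6 and 7 with mLIF, 0 in all libraries with mOSM, and 1, 1 and 0 with hlOSM. Col27a1 was listed at 4 to 9 with PBS, 3 to 5 with mLIF, 8 to 14 with mOSM and 11 to 14 with hlOSM. Col2a1 was listed at 7 to 12 with PBS, 8 to 14 with mLIF, 4 to 6 with mOSM and 3 to 4 with hlOSM. Col14a1 and Col7a1 passed in no comparison with PBS and were listed at 13 to 25 and 9 to 20.

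Proportions between chains of the same molecule or class were taken within each library. The ratio of Col1a2 to Col1a1, the partners in the type I helix, was 1.70 ± 0.0801 with PBS, 1.63 ± 0.0815 with mLIF, 1.03 ± 0.0621 with mOSM and 1.09 ± 0.0693 with hlOSM. That of Col3a1 to Col1a1 was 1.42 ± 0.231 with PBS, 3.38 ± 0.748 with mOSM and 3.70 ± 0.590 with hlOSM. The ratio of Col5a1 to Col5a2 was 0.582 ± 0.0360 with PBS and 0.583 ± 0.0484 with hlOSM, and that of Col4a1 to Col4a2 was 1.16 ± 0.0345 and 1.20 ± 0.00793. These are ratios of normalized counts that are not divided by length, and no test was run on them. As a share of a library, the fibrillar chains together held 0.0713% with PBS, 0.0614% with mLIF, 0.0740% with mOSM and 0.0702% with hlOSM. In the same order, the basement membrane chains held 0.134%, 0.128%, 0.130% and 0.128%, and the other chains 0.0699%, 0.0618%, 0.0472% and 0.0468%.

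**Figure D3:**
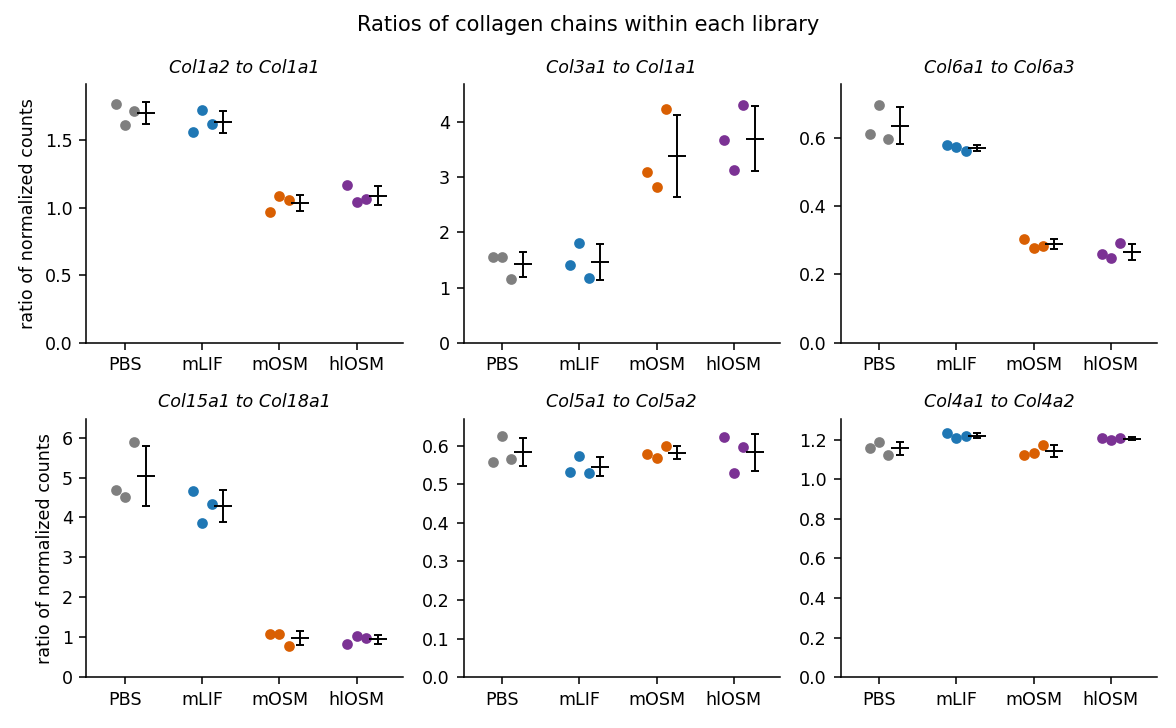
Ratios of normalized counts of 6 pairs of chains within each library, with 1 point per library and the mean with its SD in black. The ratios of Col1a2 to Col1a1, Col6a1 to Col6a3 and Col15a1 to Col18a1 are lower with mOSM and hlOSM than with PBS or mLIF, that of Col3a1 to Col1a1 is higher, and those of Col5a1 to Col5a2 and Col4a1 to Col4a2 lie close together.

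With mLIF, 0 of the 16 chains were raised and 3 were lowered, where 6.72% and 5.62% of all genes of this level passed, and 12 of the 16 had an unadjusted p under 0.05, as did 29.3% of these genes. The median log2 fold change was −0.200. Col6a1 was lowered (log2 fold change −0.44, SE 0.10, adjusted p = 0.00913, and 0.0318 with the block) and so was Col6a2 (−0.40, adjusted p = 0.0237). Col1a2 just passed (−0.27, adjusted p = 0.0469). In the fit with the block, Col6a2 (adjusted p = 0.0735) and Col1a2 (0.0755) did not pass, and 1 chain remained, against 3.44% of all genes in this direction. PBS replicate 3 held the highest PBS value in 10 of the 16 chains, and the share over all genes was not counted. Its summed count was also the largest of the PBS libraries (2911689 against 2860660 and 2817313). Without PBS replicate 3, no change of these 3 chains with mLIF passed (−0.33, −0.35 and −0.15 for Col6a1, Col6a2 and Col1a2, adjusted p = 0.0805, 0.116 and 0.296). Without mLIF replicate 1, 2 or 3 the adjusted p of Col6a2 was 0.101, 0.0515 and 0.067 and that of Col1a2 was 0.117, 0.0866 and 0.14. Col6a2 also missed the threshold without PBS replicate 2 (0.0556), and Col1a2 without hlOSM replicate 2 (0.0522). For Col1a2 the adjusted p was also 0.0505 with a pseudocount of 0.1, 0.0726 when no low genes were left out, 0.0517 after rescaling by the trimmed mean of M-values and 0.0884 after quantile scaling. Col5a3, a minor type V chain with a mean under 50, went from 55 to 65 with PBS to 29 to 40 with mLIF (−0.70, adjusted p = 0.0137) and did not pass with mOSM or hlOSM (adjusted p = 0.431 and 0.191).

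The difference between the cytokines was tested directly. Against mLIF, 3 of the 16 chains were higher and 8 were lower with mOSM, where 6.83% and 5.81% of all genes of this level passed. With hlOSM the numbers were 3 and 8, against 8.39% and 9.64%. Col3a1 was higher by 1.25 with mOSM (adjusted p = 1.46e-07) and by 1.22 with hlOSM (adjusted p = 1.68e-07). Col15a1 was lower, with log2 differences of −1.57 and −1.52, and so was Col6a1 with −1.45 and −1.66. Col1a1, Col5a1, Col5a2, Col4a1 and Col4a2 did not pass in these comparisons, with estimates between −0.17 and 0.13. With the block, Col12a1 did not pass for hlOSM (0.23, adjusted p = 0.0318, and 0.0635 with the block).

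Between hlOSM, which can also use LIFR, and mOSM, 0 of the 16 chains differed by limma, while 0.138% of all genes of this level passed. At an unadjusted p under 0.05 there was 1 of the 16 chains and 7.19% of these genes. The estimates lay between −0.20 and 0.08, with adjusted p between 0.661 and 0.994. The 95% intervals of the single chains stayed within −0.42, the lower bound of Col6a1, and 0.32, the upper bound of Col18a1. Col1a1 (−0.17, 95% interval −0.34 to 0.00) and Col6a1 (−0.20, −0.42 to 0.01) were lower in all hlOSM libraries than in all mOSM libraries, as were 5.92% of genes of this level. Col8a1 was higher in all hlOSM libraries (0.04, −0.08 to 0.17), as were 3.59% of genes.

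Proteins that make and mature collagen were read from lists of named enzymes and partners, which hold no chains. Of all genes tested, 15.4% were raised and 15.8% lowered with mOSM, 18.2% and 19.8% with hlOSM, and 5.47% and 4.44% with mLIF. Of 20 tested genes for modification and folding of the chains, 2 were raised and 3 lowered with mOSM, 3 and 5 with hlOSM, and 0 and 1 with mLIF. With the replicate block the numbers were 1 and 3, 2 and 3, and 0 and 0. Of these genes, P4ha3 entered the test through the conditions in which it was high. It was listed at 15 to 34 with PBS, 15 to 20 with mLIF, 2 to 10 with mOSM and 5 to 7 with hlOSM. P4ha1, a catalytic subunit of prolyl 4-hydroxylase, was lowered with all 3 cytokines (log2 fold changes −0.21, −0.24 and −0.22 with mLIF, mOSM and hlOSM, adjusted p = 0.0238, 0.00328 and 0.0047, and 0.0597 with the block for mLIF). The lysyl hydroxylase Plod2 was lowered with mOSM and hlOSM (−0.24 and −0.30), and the cyclophilin Ppib was raised (0.28 and 0.27). The prolyl 3-hydroxylase P3h1 was raised as well (0.30 and 0.28, adjusted p = 0.0272 and 0.0289), but not with the block (0.0725 and 0.0738). The lysyl hydroxylase Plod3 was raised with hlOSM (0.32, adjusted p = 0.0041).

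Of 15 tested genes of procollagen processing and cross-linking, 6 were raised and 5 lowered with mOSM (15.4% and 15.8% of all genes), 5 and 4 with hlOSM (18.2% and 19.8%), and 2 and 1 with mLIF (5.47% and 4.44%). With the replicate block, 4 were raised and 3 lowered with mOSM. Of these genes, Adamts14 and Tll1 entered the test wholly or mostly through the conditions in which they were high. Adamts14 was listed at 24 to 25 with PBS, 20 to 28 with mLIF, 1 to 3 with mOSM and 4 to 9 with hlOSM. Tll1 was listed at 4 to 9 with PBS, 9 to 15 with mLIF, 9 to 17 with mOSM and 12 to 17 with hlOSM. Bmp1, the protease that removes the C-propeptides of fibrillar procollagens, was listed at 97, 121 and 132 with PBS and at 201 to 242 with the OSM proteins (log2 fold changes 0.93 and 0.87, adjusted p = 2.8e-07 and 4.87e-07). The lysyl oxidase family members Loxl4 (1.17 and 1.15) and Loxl2 (0.59 and 0.39) and the transglutaminase Tgm2 (0.62 and 0.68) were raised as well, and Loxl4 (0.53) and Tgm2 (0.36) also with mLIF. The family did not move as a whole. Lox was listed at 66 to 83 with PBS, 84 to 95 with mLIF, 58 to 61 with mOSM and 50 to 70 with hlOSM. Loxl1 and Loxl3 had means of 102 and 141 with PBS, 112 and 147 with mOSM, and 111 and 139 with hlOSM. Sparc, a collagen-binding matricellular protein, was lowered with all 3 cytokines (−0.28, −0.40 and −0.47).

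Of 8 receptors for collagen, 2 were raised and 4 lowered with mOSM, where 15.4% and 15.8% of all genes passed, and 3 and 4 with hlOSM, where 18.2% and 19.8% did. The discoidin domain receptor Ddr2, which binds fibrillar collagen, was lowered (log2 fold changes −0.66 with mOSM and −0.76 with hlOSM), and so were its relative Ddr1 (−0.21 and −0.27) and Mrc2, an endocytic receptor for collagen (−0.69 and −0.76). The integrin subunit Itga1, part of a receptor for type IV collagen, was raised by 0.56 and 0.65, and its partner Itgb1 passed with hlOSM (0.20, adjusted p = 0.00878). Of 6 tested proteoglycans that sit on fibrils, 1 was raised and 3 lowered with mOSM, and 2 and 3 with hlOSM (1 and 3 with the replicate block). Of these genes, Aspn entered the test through the conditions in which it was high. It was listed at 31 to 32 with PBS, 23 to 26 with mLIF, 5 to 8 with mOSM and 5 to 7 with hlOSM. Decorin (Dcn), which coats fibrils, was listed at 230, 222 and 213 with PBS and at 396 to 528 with the OSM proteins (1.09 and 0.98), osteoglycin (Ogn) went the other way (−0.99 and −0.94), and biglycan (Bgn) was lowered (−0.19 and −0.21). Of 12 tested partners of type IV collagen in the basement membrane, 1 was raised and 7 lowered with mOSM, 3 and 7 with hlOSM, and 0 and 3 with mLIF (5.47% and 4.44% of all genes). With the block, hlOSM raised 1 of them and mLIF lowered 1. Nidogen-2 (Nid2) was raised by 0.77 and 0.69 with mOSM and hlOSM, while the laminin chains Lama2 (−0.45 and −0.46), Lamb2 (−0.37 and −0.45) and Lama4 (−0.32 and −0.38) and agrin (Agrn, −0.44 and −0.57) were lowered. With mLIF, Lamb2 was lowered too (−0.26, limma adjusted p = 0.00244). Nid2 was lowered with mLIF (−0.31, adjusted p = 0.0499, and 0.0853 with the block).

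Markers of the cell types that can make collagen were set beside these values. Of 16 fibroblast markers, 13 were tested, and 4 were raised and 4 lowered with mOSM (15.4% and 15.8% of all genes), 5 and 6 with hlOSM (18.2% and 19.8%), and 0 and 0 with mLIF. The replicate block left 3 raised and 4 lowered with mOSM, and 4 raised and 5 lowered with hlOSM. Their summed normalized count was 1334 to 1399 with PBS, 1351 to 1360 with mLIF, 1324 to 1480 with mOSM and 1272 to 1374 with hlOSM. Dcn, which like Lum is on the proteoglycan list too, is an abundant marker that was raised with both OSM proteins. Without it the sums were 1112 to 1186, 1100 to 1150, 897 to 952 and 870 to 876. Much of this remaining sum was Pdgfra, with a mean of 613 in PBS against 1150 for the sum. Pdgfra, the receptor that defines resident fibroblasts, was listed at 609, 579 and 652 with PBS and at 384 to 441 with the OSM proteins (log2 fold changes −0.52 and −0.59, adjusted p = 8.87e-07 and 1.03e-07). Postn was lowered with hlOSM (−0.41) and Lum was raised (0.37, adjusted p = 0.0442, and 0.0748 with the block). None of the 16 was at 0 in every library, and 3 were at 0 in some. The counts of calls include markers that entered the test through the conditions in which they were high. Pi16 and Cthrc1 reached 10 only with an OSM protein and Dpt only without one, and Islr and Thy1 mostly without one.

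Of 9 tested smooth muscle and pericyte markers, 7 were lowered with mOSM, 8 with hlOSM and 0 with mLIF, and none was raised, where 15.8%, 19.8% and 4.44% of all genes were lowered. With the replicate block, 6 were lowered with mOSM and 7 with hlOSM. Their sum was 1103 to 1359 with PBS, 1022 to 1074 with mLIF, 767 to 821 with mOSM and 697 to 735 with hlOSM. Acta2, which encodes smooth muscle actin, was listed at 199, 200 and 278 with PBS and at 68 to 92 with the OSM proteins (−1.43 and −1.45). Acta2 had its highest PBS value in replicate 3. Of 10 endothelial markers, 8 were raised with either OSM protein (7 for hlOSM with the block), against 15.4% and 18.2% of all genes, and the sum went from 1420 to 1478 with PBS to 1760 to 2000 with mOSM and 1788 to 1981 with hlOSM. Of 6 tested macrophage markers, Cd68 was raised with all 3 cytokines, and Lyz2 and Mrc1 were lowered with hlOSM (for Mrc1 adjusted p = 0.0482, and 0.0988 with the block). Both tested Schwann cell markers were lowered with mOSM (1 with the block) and hlOSM, and none of the 5 epicardial markers reached the test. Cardiomyocyte markers had the highest sums, 17103 to 18966 with PBS and 13210 to 15456 with mOSM, and 7 of 8 were lowered with either OSM protein and 6 with mLIF (4 with the block). The part of these cell types in the changes of the chains was not tested.

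**Figure D4:**
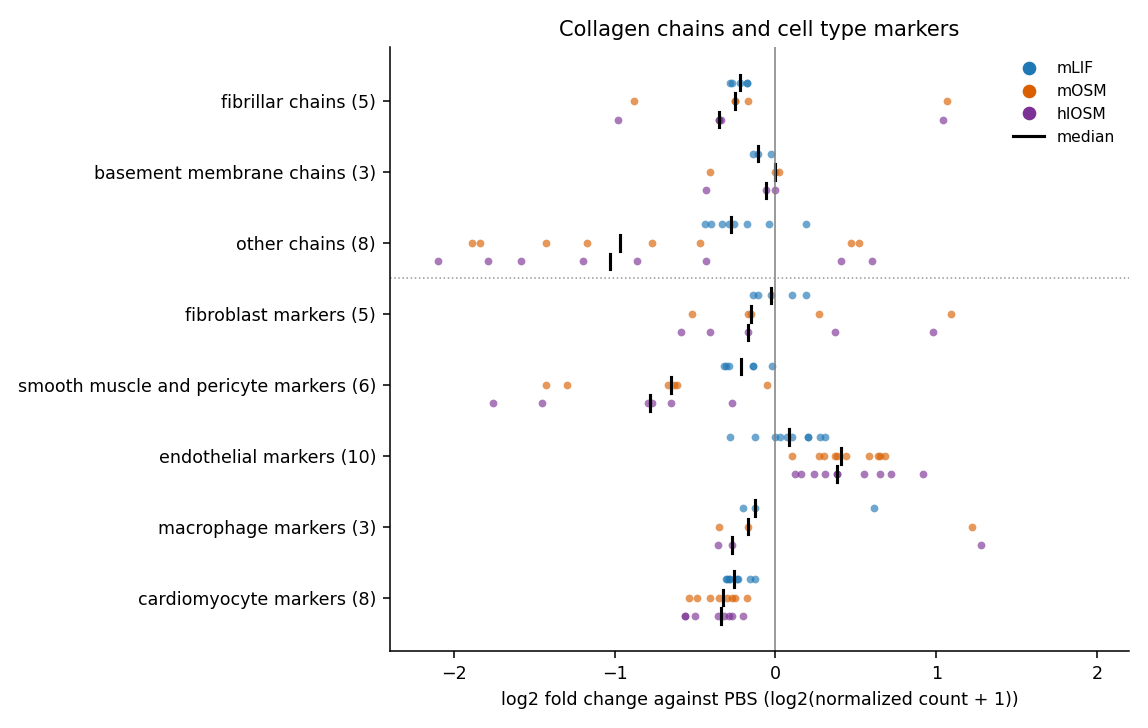
Log2 fold changes against PBS of collagen chains and cell type markers whose mean normalized count reached 50, with 1 point per gene, the number of genes in parentheses and black lines at the medians. With mOSM and hlOSM the other chains (medians −0.97 and −1.03) and the smooth muscle and pericyte markers (−0.65 and −0.78) lie mostly to the left, endothelial markers (0.41 and 0.38) lie to the right, and fibrillar chains and fibroblast markers each have members on both sides.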

How the data were processed

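Total RNA was made into 12 stranded libraries. The authors aligned the reads to mm10 with STAR 2.7.7a and counted those that touch exons of a single gene with featureCounts 1.6.5, so reads on overlapping genes were dropped. The deposited values are scores on a normalized count scale, rounded to whole numbers. The normalization is not given in the sources used here, and the depth behind a value is unknown, so count models, counting intervals and detection limits were not used.

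Log2(normalized count + 1) was tested by limma 3.58.1 in R 4.3.3 (lmFit, eBayes with trend) over the 13184 genes that reached 10 in 3 or more libraries. All 12 libraries were in a single fit, tests were two-sided, and p-values were adjusted over all these genes by Benjamini-Hochberg with a threshold of 0.05. Fold changes on this scale understate those of low genes. An exact permutation test of 3 against 3 libraries cannot go below 0.1 and was not used. The titles number the libraries 1 to 3 in every condition. Deviations of same-numbered libraries from their condition means correlated at −0.41 to −0.15, and this number accounted for 1.7% of the within-condition variance, against 25% if it had no effect at all. The unblocked fit may therefore count too many degrees of freedom, so the adjusted p with the replicate number as a block is given where it changes a call.

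Chains with a mean of at least 50 that passed against PBS in at least 1 comparison, and the 2 highest chains of each class, are given by library. From other lists, up to 5 members with the smallest F test p, a mean of at least 50 and a call against PBS are named, and other genes named were chosen after their values were seen. The chains, lists and tests were chosen with earlier results of these data known, and the mean of at least 50 was taken for the counts of chains after the values were seen. Levels per kb used the principal transcript of the GENCODE annotation, and promoter windows came from RefSeq on GRCm38.p6. In values simulated for hlOSM against PBS over 13184 genes, the test recovered 169 of 200 genes given a log2 change of 1, with 9 false calls, and 110 of 200 given 0.5, with 3. The simulated noise was independent between libraries. These numbers therefore do not cover the correlation between same-numbered libraries. Col9a1, Col9a2, Col10a1, Col19a1 and Col26a1 were not analysed here.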

Additional observations from a re-analysis of the deposited data

How the results depend on the processing

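Results were recomputed after changing the pseudocount to 0.1 or 5, the filter to none or 50 and the scaling to the trimmed mean of M-values or quantiles, with only the libraries compared, with a replicate block, and without each library in turn. The counts of chains are over the 26 tested, with the 6 that entered the test through the conditions in which they were high. Against PBS, mLIF lowered 4 (Col1a2, Col5a3, Col6a1 and Col6a2). This number was 7 in the fit of the libraries compared, 2 with the replicate block, and 1 to 7 with a library left out (1 without PBS replicate 3 or mLIF replicate 1, 2 without mLIF replicate 2 or 3, and 7 without PBS replicate 2). With the filter at 50, fewer chains were tested, and hlOSM raised 3 in place of 5 against PBS and differed from mLIF in 11 in place of 18. With a library left out, mOSM raised 4 to 5 and lowered 12 to 15 chains, and hlOSM raised 4 to 5 and lowered 16. With the replicate block, mOSM raised 4 and lowered 13, and hlOSM raised 4 and lowered 16. None of the 16 chains with a mean of at least 50 changed direction against PBS under any of these alternatives while past the threshold, and the calls with hlOSM kept their side of it in all of them. Counts of genes raised or lowered in the other gene lists stayed within 1.5 times in 1010 recounts and moved further in 70 with a library left out, and in 670 and 50 under the other changes. The unknown depth limits the low chains most, since values under 10 move by whole steps of the rounded scale.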
